A study of Mus musculus with 8 samples.

Results

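The cadherin switch and the transcription factors of the epithelial-mesenchymal transition (EMT) were followed through 10 genes of the mouse: Cdh1, Cdh2, Epcam, Snai1, Snai2, Twist1, Twist2, Zeb1, Zeb2 and Prrx1. They were read by 21 probes of a 1-colour Agilent expression array, on which 41174 probes stood for 27590 genes. Every probe was taken whose listed gene name, or the symbol of whose listed transcript, was 1 of the 10, without regard to its signal. Of the 21 probes, 14 were named through their transcript, 4 through the current symbol and 3 through an older symbol. Cdh2 had 3 probes, Zeb2 had 5 and Prrx1 had 6, and the other 7 genes had 1 probe each.

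The study asked whether small molecules can return mouse somatic cells to pluripotency, and 4 of its 8 samples were hybridised to the Agilent array, with 1 array per group. The ES group was embryonic stem cells of blastocyst origin on the 129/Ola background. The MEF group was mouse embryonic fibroblasts, with no strain given in the labels. The PM2i-iPSC group was MEF treated with combinations that contained purmorphamine and then with 2i/LIF, and the OM2i-iPSC group was MEF treated with combinations that contained an oxysterol and then with 2i/LIF. Purmorphamine is an agonist of Smoothened in the Hedgehog pathway, some oxysterols act on the same protein, and 2i/LIF is the usual name of a medium that holds kinase inhibitors and leukaemia inhibitory factor and sustains pluripotent mouse cells. No added transgene is named for these groups, and whether the RNA of an iPSC preparation came from 1 clone or from pooled colonies is not given in the sources used here. Because each group was 1 array, no difference had a replicate error or a test. The other 4 samples, on an Affymetrix array, were not used here.

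In an epithelium, E-cadherin joins neighbouring cells through its extracellular repeats and is anchored to actin by catenins. Cells that undergo EMT lower E-cadherin and raise N-cadherin, and transcription factors of the Snail, ZEB and Twist families bind E-box sequences in the E-cadherin promoter and repress it. The reverse course, the mesenchymal-to-epithelial transition, is known as an early step when fibroblasts are reprogrammed, and mouse embryonic stem cells grow as compact colonies that hold E-cadherin.

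Levels are given on a log2 scale against the 75th percentile of the processed signal on the same array, so 0 is the signal of that percentile and 1 unit is a factor of 2. Such levels are compared between arrays for the same probe, never between probes, except where a median over probes stands for a gene. The percentile was between 1877 signal units (MEF) and 3531 (PM2i-iPSC), and 63.4% to 72.8% of spots were well above background. Spots of probes that were printed several times differed within an array by an SD of 0.21 over 659 probe and array pairs, or 0.30 for a difference between 2 spots. This spread covers the spot only and leaves out culture, RNA and hybridisation. The MEF array was extracted with an older software version and was scanned on another day and slide than the rest, so scan day and group cannot be told apart in any comparison with MEF. ES and PM2i-iPSC shared a slide and OM2i-iPSC lay on another, so a comparison of OM2i-iPSC with either of them is also one between slides, and these cannot be told apart. The labels were checked with marker genes. The 6 pluripotency markers had median levels of 3.95 in ES, 3.18 in OM2i-iPSC and 3.71 in PM2i-iPSC against -4.11 in MEF. The 6 fibroblast markers had a median of 4.15 in MEF against -1.80 in ES, -1.10 in OM2i-iPSC and -0.77 in PM2i-iPSC.

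Against MEF, the same pattern was present in ES and in both iPSC preparations. Cdh1 and Epcam were at least 2-fold higher and the other 8 genes at least 2-fold lower, so 10 of 10 genes lay apart in each of the 3 comparisons. Among all genes detected in ES, in MEF or in both, 33.7% lay above MEF in ES by 2-fold or more and 22.4% below it. The shares were 33.9% and 23.6% for PM2i-iPSC and 36.6% and 23.3% for OM2i-iPSC, which adds up to 56.2%, 57.5% and 59.9% lying apart in ES, PM2i-iPSC and OM2i-iPSC. The median difference over the 10 genes was -3.00 in ES, -3.46 in OM2i-iPSC and -4.15 in PM2i-iPSC, against 0.28, 0.38 and 0.28 over all genes. The 3 comparisons share the MEF array. Of the 21 probes, 18 were well above background in MEF, 15 in ES, 14 in OM2i-iPSC and 9 in PM2i-iPSC. When arrays were aligned at their medians, the median of all genes moved by -0.56 in ES, -0.74 in OM2i-iPSC and -0.62 in PM2i-iPSC, and the share of calls that were higher went from 60.0% to 44.2% in ES, from 58.9% to 43.0% in PM2i-iPSC and from 61.1% to 43.5% in OM2i-iPSC. All 30 calls of the 10 genes against MEF kept their direction and size class under that alignment.

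**Figure D1:**
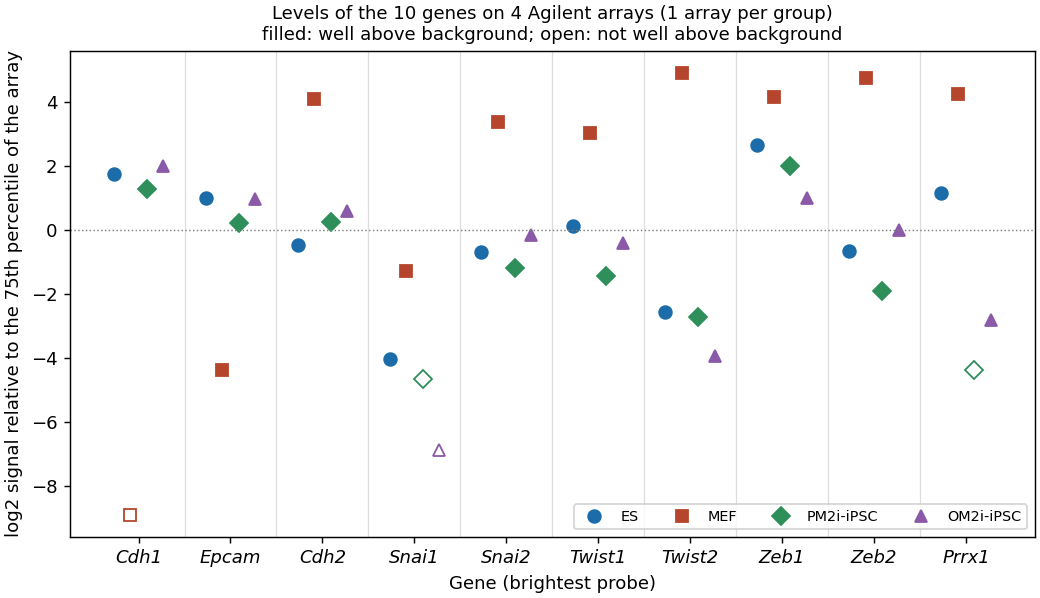
Level of each gene on its brightest probe, as log2 signal relative to the 75th percentile of the array (vertical axis), for the 4 arrays side by side within each gene (horizontal axis). Filled symbols are well above background and open symbols are not. Cdh1 and Epcam are lowest in MEF, at -8.91 and -4.40, and each of the other 8 genes is highest in MEF.

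Cdh1 encodes E-cadherin, the adhesion molecule of epithelial and pluripotent cells. Its probe, at chr8:105268557-105268616 on the plus strand of mm7, was printed at 10 spots on each array, and 9 or 10 of them were usable. The mean level was -8.91 in MEF (SD 0.10, 10 spots, not well above background), 1.74 in ES (SD 0.13, 9 spots), 1.98 in OM2i-iPSC (SD 0.17, 9 spots) and 1.28 in PM2i-iPSC (SD 0.11, 9 spots). MEF lay far from the other arrays, and the software put the error of its signal at 98.7% against 10% on the other arrays. Taken against the lowest signal well above background in MEF, Cdh1 was at least 386-fold higher in ES, at least 456-fold in OM2i-iPSC and at least 280-fold in PM2i-iPSC. These bounds depend on that floor and on the background correction. With a floor common to all arrays they were 6.33 log2 units in ES, 6.57 in OM2i-iPSC and 5.87 in PM2i-iPSC. With normexp and quantile normalization they were 6.59, 6.91 and 6.15 in the same order. The order among the pluripotent cells was OM2i-iPSC, ES and PM2i-iPSC. Spots ran from 1.75 to 2.27 in OM2i-iPSC and from 1.51 to 1.94 in ES, so these arrays overlapped. Spots in PM2i-iPSC ran from 1.12 to 1.45 and stayed below the ES range, with a mean 1.38-fold lower.

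Epcam encodes the epithelial cell adhesion molecule, a surface glycoprotein of epithelia that is also carried by pluripotent cells. Its probe, listed in the files under the old symbol Tacstd1, maps to 829 bases of the plus strand at chr17:85952074-85952902 of mm7, so its 60 bases are split over a gap there. The level was -4.40 in MEF, 1.0 in ES, 0.96 in OM2i-iPSC and 0.23 in PM2i-iPSC. All 4 signals were well above background, which makes Epcam the epithelial member with a measured fold on both sides. Epcam exceeded its MEF level by 42.1-fold in ES, 40.9-fold in OM2i-iPSC and 24.7-fold in PM2i-iPSC. ES and OM2i-iPSC differed by 0.04, less than the spread between spots, and PM2i-iPSC was 1.71-fold lower than ES. Epcam and Snai1 were the members, among the 6 with an entry in the RefSeq promoter table (GRCm38.p6), whose 250 bases upstream of the start hold the E-box letters CACCTG or the reverse complement CAGGTG, the core that Snail and ZEB factors are known to bind. The Epcam stretch, on the plus strand at chr17:87635729-87635978 of that build, holds both, at 187 to 182 and 19 to 14 bases before the start, marked in capitals.
Epcam upstream: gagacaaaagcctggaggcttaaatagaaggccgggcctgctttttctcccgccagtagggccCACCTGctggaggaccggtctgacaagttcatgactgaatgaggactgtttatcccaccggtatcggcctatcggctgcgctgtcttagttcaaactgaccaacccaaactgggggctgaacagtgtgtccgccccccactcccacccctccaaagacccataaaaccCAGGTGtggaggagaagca
At least 1 such E-box stands in the same window of 5657 of 32851 promoters (17.2%), and 2 or more in 678 (2.06%). A match describes these letters and shows no binding.

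Cdh2 encodes N-cadherin, the cadherin of mesenchymal and neural cells. Its brightest probe, which carries the RefSeq transcript, read 4.08 in MEF, -0.49 in ES, 0.60 in OM2i-iPSC and 0.25 in PM2i-iPSC. MEF stood highest, and all 4 signals were well above background. Cdh2 was 23.7-fold lower in ES than in MEF, 11.1-fold in OM2i-iPSC and 14.3-fold in PM2i-iPSC. Both iPSC preparations lay above ES, PM2i-iPSC by 1.66-fold and OM2i-iPSC by 2.13-fold, and their own difference of 0.36 was slightly wider than the spread between spots. The call against ES in OM2i-iPSC fell short of 2-fold when arrays were aligned at their medians, at 0.91. With the median over the 3 probes the value was 0.43. That median came from a different probe on each of these arrays, neither well above background, so 0.43 does not bear on the call. A probe to the cDNA AK084821 was well above background in MEF alone, at -3.16, and was at least 3.93-fold lower in ES, at least 2.72-fold in OM2i-iPSC and at least 2.70-fold in PM2i-iPSC. The remaining Cdh2 probe, to the cDNA AK087418, was not well above background on any array.

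The exchange of cadherins can be put as the difference in Cdh1 minus the difference in Cdh2 against MEF. With the MEF floor used above for Cdh1, it was at least 13.2 log2 units in ES, at least 12.3 in OM2i-iPSC and at least 12.0 in PM2i-iPSC. These sizes contain the Cdh1 bound, so they are smaller with a common floor or with normexp and quantile normalization. Against ES, the same quantity was -1.20 in PM2i-iPSC and -0.85 in OM2i-iPSC. In PM2i-iPSC the Cdh1 difference was -0.46 and the Cdh2 difference 0.73. In OM2i-iPSC they were 0.24 and 1.09, so N-cadherin RNA was above ES in both preparations and E-cadherin RNA in 1 of them, with spots that overlapped those of ES.

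Snai1 and Snai2 encode the zinc-finger repressors Snail and Slug, read by probes at chr2:167283227-167283286 and chr16:14250104-14250163 on the plus strand of mm7. The level of Snai1 was -1.30 in MEF, -4.04 in ES, -6.88 in OM2i-iPSC and -4.66 in PM2i-iPSC. Neither iPSC array was well above background, and ES was dim, with a software error of 15.2% against 10% in MEF. Snai1 was 6.67-fold lower in ES than in MEF, at least 9.87-fold in OM2i-iPSC and at least 9.78-fold in PM2i-iPSC. Its distance below ES was at least 1.48-fold in OM2i-iPSC and at least 1.47-fold in PM2i-iPSC, and the iPSC preparations could not be compared with each other. The 250 bases upstream of Snai1, on the plus strand at chr2:167537945-167538194 of GRCm38.p6, hold CACCTG at 126 to 121 bases before the start, in capitals, and are shown because Snail is known to bind such letters in its own promoter.
Snai1 upstream: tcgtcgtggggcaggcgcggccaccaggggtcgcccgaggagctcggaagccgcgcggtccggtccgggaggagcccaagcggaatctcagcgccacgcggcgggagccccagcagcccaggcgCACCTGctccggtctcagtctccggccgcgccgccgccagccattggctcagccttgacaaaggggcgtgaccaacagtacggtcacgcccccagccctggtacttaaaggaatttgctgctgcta
None of the upstream windows of Prrx1, Twist1, Twist2 (1 promoter each) and Zeb2 (4 promoters) holds these letters.

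Snai2 stayed measurable on all arrays, at 3.39 in MEF, -0.71 in ES, -0.16 in OM2i-iPSC and -1.20 in PM2i-iPSC. MEF was highest, followed by OM2i-iPSC, ES and PM2i-iPSC, and each step was wider than the spread between spots. Snai2 was 17.1-fold lower in ES than in MEF, 11.7-fold in OM2i-iPSC and 24.0-fold in PM2i-iPSC. The iPSC preparations lay on opposite sides of ES, PM2i-iPSC 1.41-fold below it and OM2i-iPSC 1.46-fold above it, and they differed from each other by 2.06-fold.

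Twist1 and Twist2 encode closely related basic helix-loop-helix factors of mesoderm and mesenchyme, with probes at chr12:31805579-31805638 and chr1:91755751-91755809 on the plus strand of mm7. Twist1 read 3.02 in MEF, 0.13 in ES, -0.42 in OM2i-iPSC and -1.44 in PM2i-iPSC. Both iPSC preparations were below ES, and the order MEF, ES, OM2i-iPSC, PM2i-iPSC had steps wider than the spread between spots. Twist1 was 7.43-fold lower in ES than in MEF, 10.9-fold in OM2i-iPSC and 22.0-fold in PM2i-iPSC. The distance below ES was 1.46-fold in OM2i-iPSC and 2.96-fold in PM2i-iPSC.

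Twist2 read 4.90 in MEF, -2.56 in ES, -3.94 in OM2i-iPSC and -2.71 in PM2i-iPSC, with every signal well above background. Among the members with a measured fold on every array, Twist2 had the widest distance from MEF: 177-fold lower in ES, 461-fold in OM2i-iPSC and 196-fold in PM2i-iPSC. ES and PM2i-iPSC differed by 0.15, less than the spread between spots. OM2i-iPSC was 2.60-fold below ES, and the software put the error of its signal at 16.2%. The iPSC preparation that was lower thus differed between the paralogs, with PM2i-iPSC 2.02-fold below OM2i-iPSC for Twist1 and 2.35-fold above it for Twist2. These calls are close to 2-fold: with arrays aligned at their medians the Twist1 difference was -0.91, and with normexp and quantile normalization together the Twist2 difference was 0.83.

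Zeb1 and Zeb2 encode zinc-finger homeobox repressors that recruit the corepressor CtBP. Zeb1, with 1 probe listed under the old symbol Zfhx1a, read 4.15 in MEF, 2.67 in ES, 0.99 in OM2i-iPSC and 1.99 in PM2i-iPSC. All 4 arrays were well above background, and no step in the order MEF, ES, PM2i-iPSC, OM2i-iPSC was within the spread between spots. Zeb1 was 2.80-fold lower in ES than in MEF, 8.94-fold in OM2i-iPSC and 4.49-fold in PM2i-iPSC, which made it the member nearest to MEF in ES. With quantile normalization the ES difference was -0.96 and missed 2-fold, as it did with normexp and quantile normalization at -0.95. OM2i-iPSC was 3.19-fold below ES and PM2i-iPSC 1.60-fold below it.

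Zeb2 had 5 probes, spread over 36.5 kb of the minus strand of chromosome 2. The brightest, A_52_P596008 at chr2:44994565-44994624 of mm7, read 4.74 in MEF, -0.67 in ES, 0.00 in OM2i-iPSC and -1.92 in PM2i-iPSC. On it Zeb2 was 42.5-fold lower in ES than in MEF, 26.6-fold in OM2i-iPSC and 101-fold in PM2i-iPSC. Another probe to the same transcript, A_51_P121206, read 0.56 in MEF, -4.55 in ES, -0.98 in OM2i-iPSC and -4.20 in PM2i-iPSC, the last not well above background. A probe to the cDNA AK031541, A_52_P587928, read 0.28 in MEF, -2.31 in ES, -1.28 in OM2i-iPSC and -4.89 in PM2i-iPSC, again with the last not well above background.

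The 3 probes gave the same order of MEF, OM2i-iPSC and ES, with OM2i-iPSC above ES by 1.59-fold, 11.9-fold and 2.04-fold, respectively. They differed in size: against MEF, OM2i-iPSC was 26.6-fold lower on the brightest probe but 2.91-fold and 2.94-fold lower on the others. PM2i-iPSC was 2.37-fold below ES on the brightest probe and at least 4.86-fold below it on the AK031541 probe. Against OM2i-iPSC it was 3.78-fold lower on the brightest probe, at least 9.35-fold lower on A_51_P121206 and at least 9.91-fold lower on the AK031541 probe. When the median over probes stood for Zeb2, the difference of PM2i-iPSC from ES was -0.34 and that of OM2i-iPSC from ES was 3.27. These medians came from A_51_P121206 in ES and from the AK031541 probe in both iPSC preparations. Both values thus set different probes against each other and measure no change on a single probe. Of the remaining probes, that to NM_001033635 was well above background in MEF alone, at -5.21, and that to AK051204 on no array.

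Prrx1 encodes a paired-related homeobox factor of limb and craniofacial mesenchyme. On its brightest probe it showed the widest difference between ES and each iPSC preparation among the 10 genes. When the median over probes stood for each gene, the Prrx1 difference from ES was -4.28 in PM2i-iPSC, still the widest, but -1.27 in OM2i-iPSC, less wide than those of Zeb2, Zeb1 and Twist2. That median was taken on each array separately and came from different probes in ES and OM2i-iPSC, so -1.27 is no difference on any probe. On the same probe OM2i-iPSC differed from ES by -3.99, -3.77, -0.92 and 0.59 where there was a value. The 3 probes that carry this difference lie on the minus strand of chromosome 1, at chr1:163222856-163222915, chr1:163218848-163218907 and chr1:163209258-163209317 of mm7, from 5′ to 3′ of the gene. Their sequences are printed because they target separate stretches of the gene.
A_52_P483713: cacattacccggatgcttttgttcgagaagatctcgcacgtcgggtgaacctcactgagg
A_51_P209778: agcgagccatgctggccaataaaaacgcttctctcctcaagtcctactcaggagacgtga
A_51_P209771: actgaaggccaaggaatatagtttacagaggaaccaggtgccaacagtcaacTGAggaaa
The first and the middle probe each hold a reading frame of 19 codons without a stop. Most probes of the 10 genes do, also the AK051204 probe of Zeb2, so such a frame does not mark coding sequence. In the last, capitals mark the TGA at base 53, which follows 17 codons without a stop in the same frame. That frame was picked for having the longest run before a stop. The files list different RefSeq transcripts for these probes, NM_011127 or NM_001025570 for the first and the middle one and NM_011127 or NM_175686 for the last, so the transcript variant each reads was not settled here, and exon positions were not analysed here.

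On A_51_P209778, the brightest, Prrx1 read 4.26 in MEF, 1.16 in ES, -2.83 in OM2i-iPSC and -4.38 in PM2i-iPSC (not well above background). On A_52_P483713 it read 3.78 in MEF, 1.23 in ES, -2.54 in OM2i-iPSC and -6.48 in PM2i-iPSC (not well above background). MEF was highest and ES next on both probes, and both iPSC arrays lay far below ES. On the brightest probe Prrx1 was 8.57-fold lower in ES than in MEF, 136-fold in OM2i-iPSC and at least 399-fold in PM2i-iPSC. On the other the distances below MEF were 5.86-fold in ES, 79.7-fold in OM2i-iPSC and at least 331-fold in PM2i-iPSC.

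Against ES, PM2i-iPSC was at least 46.6-fold lower on the brightest probe and at least 56.4-fold lower on A_52_P483713, and OM2i-iPSC was 15.9-fold and 13.6-fold lower. A_51_P209771 read 5.09 in MEF (saturated), -0.86 in ES, -1.79 in OM2i-iPSC and -4.89 in PM2i-iPSC (not well above background). On this probe, nearest to the 3′ end of the 3, ES was at least 62.2-fold, PM2i-iPSC at least 823-fold and OM2i-iPSC at least 118-fold lower than MEF. The distance between OM2i-iPSC and ES was 1.89-fold there, while PM2i-iPSC was at least 13.2-fold lower than ES.

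The other 3 Prrx1 probes did not repeat this order. The probe to the cDNA AK038736, which lies between the middle and the last of the printed probes, read -3.00 in MEF, -1.96 in ES, -1.37 in OM2i-iPSC and -2.44 in PM2i-iPSC. It went the opposite way from all other Prrx1 probes, 2.06-fold higher in ES, 3.103-fold in OM2i-iPSC and 1.47-fold in PM2i-iPSC than in MEF. The probes to AK029347 and NM_175686 were well above background in MEF alone, at -0.11 and -2.69, and on the former ES lay at least 32.6-fold, OM2i-iPSC at least 22.6-fold and PM2i-iPSC at least 22.4-fold below MEF.

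**Figure D2:**
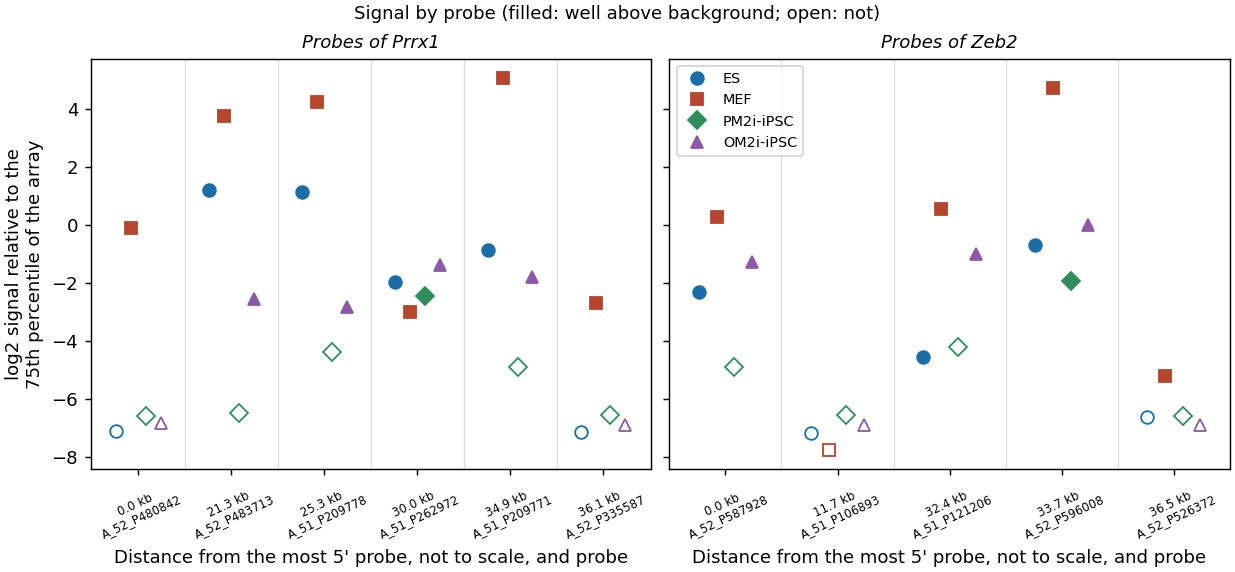
Level of each probe of Prrx1 (left) and Zeb2 (right), as log2 signal relative to the 75th percentile of the array, on the 4 arrays. Probes stand in 5′ to 3′ order with their distance from the most 5′ probe in kb, not to scale. Filled symbols are well above background and open symbols are not. ES reads 1.23 and 1.16 on the probes of Prrx1 at 21.3 and 25.3 kb, far above the iPSC arrays, and the probe at 30.0 kb is lowest in MEF. OM2i-iPSC lies above ES on the 3 Zeb2 probes that were detected in both.

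Set against ES, 7 of the 10 genes were not called 2-fold apart in PM2i-iPSC and 6 were not in OM2i-iPSC, Snai1 among them with a bound only. In PM2i-iPSC none was at least 2-fold higher, where 14% of all genes were, and 3 (Twist1, Zeb2 and Prrx1) were at least 2-fold lower, where 11.3% of all genes were. In OM2i-iPSC 1 gene (Cdh2) was higher, against 20.6% of all genes, and 3 (Twist2, Zeb1 and Prrx1) were lower, against 13.6%. Either way it was 3 of 10 in PM2i-iPSC and 4 of 10 in OM2i-iPSC, against 25.3% and 34.1% of all genes. Prrx1 was the member that was at least 2-fold lower in both. The median difference from ES was -0.62 in PM2i-iPSC and -0.29 in OM2i-iPSC, against -0.04 and 0.05 over all genes. With arrays aligned at their medians, the share of calls that were higher in OM2i-iPSC went from 60.3% to 48.5%. These 2 comparisons share the ES array.

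**Figure D3:**
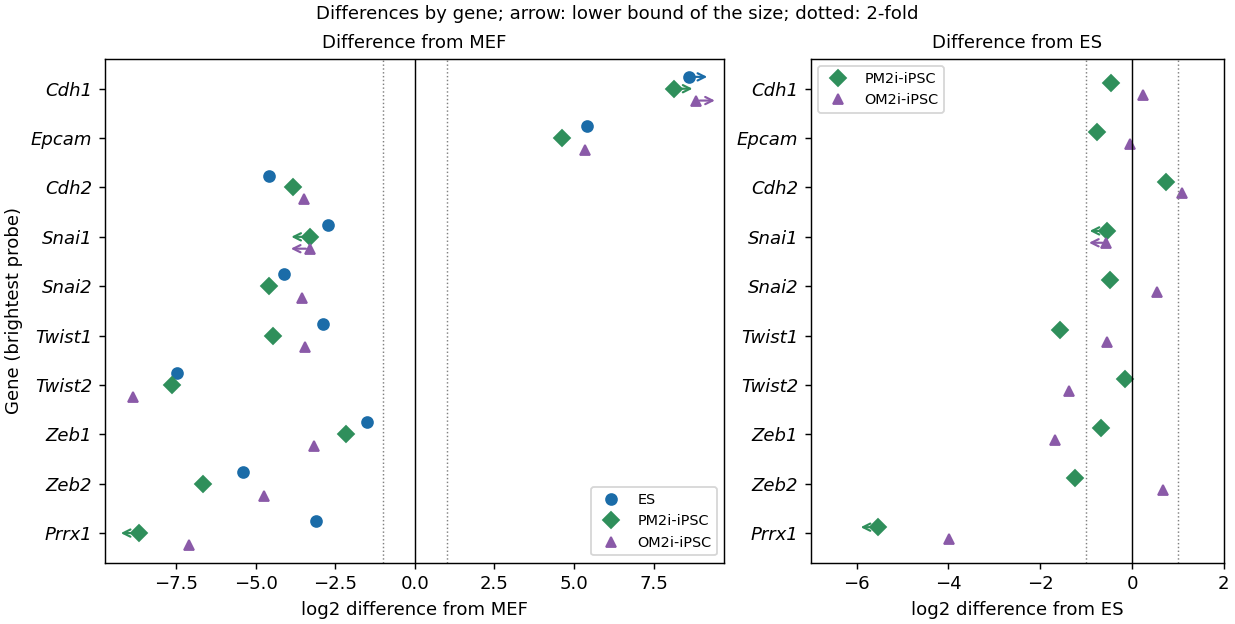
Log2 difference of each gene on its brightest probe from MEF (left) and from ES (right). Dotted lines mark 2-fold, and an arrow marks a difference that is a lower bound of the size, because 1 side was too dim for a fold. Against MEF all points lie outside the dotted lines, and against ES the widest are Prrx1 in PM2i-iPSC, at -5.54 (a bound), and in OM2i-iPSC, at -3.99.

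The preparations themselves were compared over the 9 genes with a value. In PM2i-iPSC 1 gene (Twist2) was at least 2-fold higher than in OM2i-iPSC, against 12.5% of all genes, and 4 (Snai2, Twist1, Zeb2 and Prrx1) were lower, against 16.9%. Either way it was 5 of 9, against 29.4%. The median was -0.73, against -0.09 over all genes. Zeb1 lay just inside the threshold, 1.99-fold higher in PM2i-iPSC. Snai2 and Twist1 lay just outside it, at 2.06-fold and 2.02-fold, and both fell short of 2-fold when arrays were aligned at their medians, while Zeb1 then passed it, so that 2 genes were higher and 2 lower.

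Fibroblast RNA was looked for beside these values, because MEF was highest for 8 of the 10 genes. The summed level of the 6 fibroblast markers was 624% of the 75th percentile in ES, 609% in PM2i-iPSC and 575% in OM2i-iPSC, against 11219% in MEF. All 6 were well above background in MEF and in ES, and 4 were in OM2i-iPSC and 5 in PM2i-iPSC. Lum, a proteoglycan of connective tissue, read -3.35 in ES and 3.35 in MEF and was not well above background in either iPSC preparation. Dcn, another such proteoglycan, read 4.59 in MEF, -3.19 in ES, -4.39 in OM2i-iPSC (not well above background) and -3.81 in PM2i-iPSC. Pdgfrb, the receptor of platelet-derived growth factor, was 2.88 log2 units higher in PM2i-iPSC and 2.37 higher in OM2i-iPSC than in ES. The other 5 fibroblast markers differed from ES by -1.24 to 0.08 in PM2i-iPSC and by -1.26 to -0.38 in OM2i-iPSC. The part of such cells in the levels of Prrx1, Cdh2 and Snai2 was not tested, and fewer cells of a type and less RNA per cell cannot be told apart in these bulk samples. Of 5 trophoblast markers, Cdx2 was 3.46 log2 units higher in OM2i-iPSC than in ES, whereas Eomes, Krt7 and Gata3 differed by -0.56, -0.10 and 0.14 and Elf5 was not well above background on any array. Of 3 markers of skin epithelium, the keratins Krt5 and Krt14 were 2.96 and 2.16 log2 units higher in OM2i-iPSC than in ES. Trp63 was not well above background on either array. In PM2i-iPSC Krt5 and Krt14 were 0.37 and 1.44 higher than in ES. Krt5 read 1.66 in MEF, near its 1.75 in OM2i-iPSC, whereas Krt14 read -3.58 in MEF and 1.03 in OM2i-iPSC.

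The course of the members over the 4 arrays was compared for the 7 that were well above background and not saturated on all of them. After each gene's mean was subtracted, the distance between courses was 0.87 for Cdh2 and Snai2, 0.98 for Snai2 and Twist1, and 1.48 for Snai2 and Zeb2. Seen from Cdh2, Snai2 ranked 100 among 14980 genes, and seen from Zeb2 it ranked 81. Zeb1 stood further off, with Twist1 its nearest member at 1.83 and rank 3436. Epcam was the most distant from every other member, between 6.55 for Zeb1 and 11.4 for Twist2. The genes with the most similar course were Nyx, Mecom and Cd109 for Cdh2 (distances 0.09 to 0.22), Wls, AK035727 and Mx2 for Snai2 (0.17 to 0.26), Sema6a, Gypc and Sin3b for Twist1 (0.25 to 0.29) and Ppp1r14a, Flnc and 1700123O20Rik for Zeb1 (0.10 to 0.18). For Zeb2 they were Tbx15, Cxcl16 and Egfr (0.33 to 0.47), for Epcam Pla2g4c, Elavl3 and Dab1 (0.06 to 0.25), and for Twist2 Ifi44, Col8a1 and Mmp3 (0.49 to 1.37). With 4 points per gene these are descriptions of 4 arrays.

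Other genes of the pathway were taken from 6 lists, and their values are log2 differences from MEF in the order ES, OM2i-iPSC and PM2i-iPSC unless said otherwise. The median over all genes was 0.28, 0.38 and 0.28 in that order. Of all genes, 33.7%, 36.6% and 33.9% were at least 2-fold higher and 22.4%, 23.3% and 23.6% at least 2-fold lower. Of 29 genes of epithelial adhesion, junctions and polarity, 27 had a value in ES, where 16 were higher and 3 lower by 2-fold or more. Of 28 with a value in OM2i-iPSC 20 were higher and 3 lower, and of 26 in PM2i-iPSC 19 were higher and 1 lower. The medians were 1.496, 2.19 and 1.78. The tight-junction claudin Cldn7 showed the widest differences, at least 8.21, 10.06 and 9.10. The desmosomal plakophilin Pkp3 was higher by at least 7.39, 7.48 and 7.31, the claudin Cldn6 by 6.96, 7.14 and 7.30, and the tricellular-junction protein Marveld2 by at least 4.07, 5.57 and 4.92. Cldn3, another claudin, went the opposite way, at -2.44, -2.21 and -1.30.

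Of 12 regulators of epithelial identity, 11 were on the array, and none was called lower than in MEF. In ES 6 of 10 with a value were higher, in OM2i-iPSC 8 of 10 and in PM2i-iPSC 7 of 11, with medians of 1.77, 2.12 and 2.31. The transcription factor Tfap2c read 6.70, 6.005 and 6.07, and the Ets factor Elf3 was higher by at least 4.94, 3.54 and 4.73. Klf5, a Krüppel-like factor of epithelia and pluripotent cells, read 3.44, 2.71 and 3.25. Ovol2, a repressor of Zeb1 in epithelia, read 3.21, 2.95 and 2.37. Under quantile normalization 1 of the 10 regulators was lower in ES.

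The 22 genes of mesenchymal adhesion, cytoskeleton and matrix lay mostly the other way. Lower were 18 of 22 in ES, 17 of 20 with a value in OM2i-iPSC and 19 of 21 in PM2i-iPSC, with 1 higher in each. The medians were -2.24, -2.83 and -3.08. The matrix protease Mmp3 read -6.43, -7.03 and -7.17. The matrix protein Tnc read -4.89, -6.15 (a bound) and -4.16, and Postn, another matrix protein, had bounds of -5.77, -5.24 and -5.23. Vim, the intermediate filament of mesenchymal cells, read -1.88, -3.33 and -3.42, and Fn1, fibronectin, 0.66, -0.91 and -1.63. The higher gene was the mesenchymal cadherin Cdh11, at 1.22, 1.66 and 1.65 on its brightest probe, while its other 2 probes were lower on all 3 arrays. With arrays aligned at their medians Cdh11 was no longer 2-fold higher in ES and OM2i-iPSC.

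Of 20 other transcription factors linked to EMT, 9 were lower and 2 higher than in MEF in each comparison, with medians of -0.88, -0.86 and -0.83. With arrays aligned at their medians 12, 14 and 13 were lower, with medians of -1.43, -1.60 and -1.46. Under quantile normalization 8 were lower in each comparison. The forkhead factor Foxc2 read -6.66, -7.32 and -7.998, the last a bound. The homeobox factor Six2 read -4.28, -5.20 and -5.53, the last a bound, and the forkhead factor Foxc1 read -6.20, -4.73 and -5.66, bounds in ES and PM2i-iPSC. Prrx2, the paralog of Prrx1, read -2.20, -2.93 and -3.19. The genes called higher were Klf8, at 2.21, 1.16 and 2.14, and Snai3, the third Snail gene, which went the opposite way from Snai1 and Snai2, at 4.51, 6.72 and 3.32.

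Among 10 catenins and cadherin partners 5 were lower and 1 higher in each comparison, with medians of -0.76, -1.04 and -0.77. With arrays aligned at their medians 8 were lower and 0 higher in OM2i-iPSC, and under quantile normalization 3 were lower in ES. Ctnnb1, beta-catenin, read -1.20, -4.03 and -3.28 on its brightest probe, but its 3 probes disagreed and reached 2.97 in PM2i-iPSC. The neural catenin Ctnnd2 read -3.97, -3.03 and -2.89 on its brightest probe, but its other probe read 1.71 in PM2i-iPSC. The adhesion molecule Nectin1 read -1.08, -3.32 and -2.06. The junction scaffold Afdn was higher on its brightest probe, at 1.89, 1.70 and 2.23. Its probes ran from 0.24 to 4.62 in ES, from -0.48 to 2.96 in OM2i-iPSC and from 0.19 to 5.70 in PM2i-iPSC. Of the 11 corepressors that Snail and ZEB proteins recruit, 3 were higher and 2 lower in ES, 4 and 3 in OM2i-iPSC, and 2 and 1 in PM2i-iPSC. Of all genes, the shares higher and lower were 33.7% and 22.4%, 36.6% and 23.3%, and 33.9% and 23.6% in that order. The medians of the corepressors were 0.60, 0.28 and 0.43, and with arrays aligned at their medians they were 0.04, -0.46 and -0.20. Ctbp1, the partner of ZEB proteins, read -2.01, -1.04 and -2.58, whereas its paralog Ctbp2 read 1.29, 1.52 and 0.92. The Polycomb methyltransferase Ezh2 read 2.37, 1.81 and 1.53 and the scaffold Sin3a 1.91, 1.26 and 2.06.

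**Figure D4:**
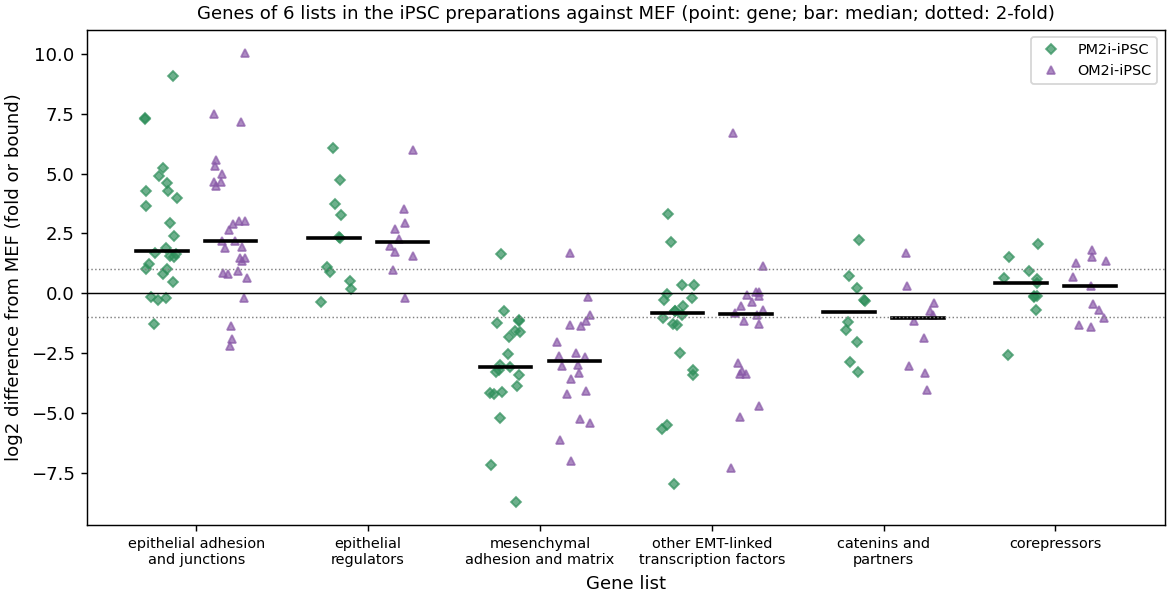
Log2 difference from MEF of each gene with a value in the 6 lists (horizontal axis), for PM2i-iPSC and OM2i-iPSC. Each point is a gene on its brightest probe, as a fold or as a bound, the bar is the median, and dotted lines mark 2-fold. The medians are 1.78 and 2.19 for epithelial adhesion and junctions and -3.08 and -2.83 for mesenchymal adhesion and matrix.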

How the data were processed

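Total RNA labelled with Cy3 was hybridised to 4 Agilent arrays, 1 per group. The deposited scanner files hold spot intensity as processed by the authors with Feature Extraction 10.7.3.1 (ES, PM2i-iPSC, OM2i-iPSC) or 9.5.3.1 (MEF), per the file headers. Gene names and coordinates came from the MEF file (grid build mm7), with symbols updated through the RefSeq table.

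Control spots and the 126 to 263 outlier spots flagged per array were dropped, log2 of the processed signal minus the array's 75th percentile was taken, and spots of a probe were averaged. The probe brightest over the 4 arrays stood for a gene. A gene entered a comparison when at least 1 of both arrays was well above background. Where the dimmer side was not, or the brighter side was saturated, the difference is a bound, taken against the higher of the dim probe's own signal and the array's lowest signal well above background (90.1 in ES, 16.3 in MEF, 147 in PM2i-iPSC, 142 in OM2i-iPSC). Counts use 2-fold. There was no test, since each group is 1 array, and the number of arrays limits the precision. The fold calls were tested on simulated data with shifts beyond the 2-fold cutoff, and the bounds on a small made-up set. Scaling, spot flags and probe choice were not tested in this way.

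The members, lists and tests were chosen with earlier results of these data known. All members are described. Of each list, up to 4 genes with the widest mean difference of both iPSC arrays from MEF and up to 2 opposite ones are named, and for each eligible member the 3 nearest genes. Some genes that this rule names are not reported here. Vim, Fn1, Prrx2 and single marker genes were picked with their values in view. Alternatives were median, quantile and detected-probe scaling, normexp (offset 50) on median signals, since 3 of the 4 files hold no mean signal, the deposited series table (intensity within 0.498% of the processed signal), the median over probes, no filter, a common floor and 4-fold. Python 3.11.15, numpy 2.4.6, pandas 2.3.3, R 4.3.3 and limma 3.58.1 were used. The Affymetrix values were not used here.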

Additional observations from a re-analysis of the deposited data

Results flagged for a closer look

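Both iPSC preparations were set against the same ES array, and for 2 members they lay on opposite sides of it by more than the spread between spots. Snai2 differed from ES by -0.49 in PM2i-iPSC and by 0.55 in OM2i-iPSC. Zeb2 differed by -1.25 in PM2i-iPSC and by 0.67 in OM2i-iPSC on its brightest probe. The difference was not tested, because each group is 1 array.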

How the results depend on the processing

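The 8 alternatives to scaling, background, probe choice, filter and floor gave 472 values of single genes. Of these, 357 moved by less than the spread between spots, 115 moved further and 0 reversed a 2-fold call. Of 59 values per setting, 30 moved further with median scaling, 29 with quantile normalization and 32 with normexp and quantile normalization. It was 16 with the median over probes, 5 with no filter, 3 with a common floor and 0 with detected-probe scaling or the deposited series values. Several of these last settings could move few values, since they change only dim genes, genes with several probes or almost nothing. Median scaling and detected-probe scaling shift all genes of a comparison by the same amount, so their counts say nothing gene by gene. Of the 30 calls against MEF, 29 held under all 8. The exception was Zeb1 in ES. Totals of members lying apart stayed within a factor of 1.5 under all 8, but the split by direction did not. Between PM2i-iPSC and OM2i-iPSC it was 1 higher and 4 lower, against 2 and 2 under median scaling, 0 and 4 under normexp with quantile normalization, and 2 and 4 under quantile normalization alone or no filter. Between OM2i-iPSC and ES it was 1 and 3, against 0 and 3 under median scaling. With the median over probes Prrx1 differed by -1.27 between OM2i-iPSC and ES, against -3.99. That median was taken on each array separately, so for Prrx1, Zeb2 and Cdh2 it could set different probes against each other. At 4-fold the count was 1 for PM2i-iPSC against ES, 1 for OM2i-iPSC against ES and 0 for PM2i-iPSC against OM2i-iPSC, in place of 3, 4 and 5. With no filter Snai1 differed by -2.84 between OM2i-iPSC and ES, against a bound of -0.57. Under a common floor the bound of Cdh1 against MEF fell from 8.59 to 6.33 in ES, from 8.83 to 6.57 in OM2i-iPSC and from 8.13 to 5.87 in PM2i-iPSC. The sign of Epcam between OM2i-iPSC and ES varied, from -0.22 to 0.14. Zeb1 crossed 2-fold between PM2i-iPSC and OM2i-iPSC under median scaling and quantile normalization, at up to 1.11.

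No replicate was left out, since each group is 1 array. No paired analysis was possible because each group is 1 array and the values come from no test. Signal over background limits Cdh1 in MEF, Snai1 in both iPSC preparations and Prrx1 in PM2i-iPSC to bounds. Slide and scan day were not separable from MEF.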
